A study of Rattus norvegicus with 12 samples.

Results

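The ISG15 conjugation genes examined here are Isg15 (NCBI Gene 298693), Uba7 (301000), Ube2l6 (295704), Herc6 (362376) and Usp18 (312688). They were taken by symbol from the deposited tables, where all 5 are present among 18469 genes, and all 5 passed the filter on low counts in every comparison. RNA came from cultured neonatal rat ventricular myocytes (NRVMs) of Sprague-Dawley rats. The 12 libraries fall into 4 groups of 3 biological replicates. The siNeg group received a negative control siRNA and no further treatment, and the siNeg.PE group received the same siRNA and then PE, which stands for phenylephrine, a drug that stimulates α-adrenergic receptors and causes hypertrophic growth of cardiomyocytes. The siSlc25a26 and siSlc25a26.PE groups received an siRNA against Slc25a26, the mitochondrial carrier of S-adenosylmethionine, without and with PE. PE was added 12 h after transfection and left for 36 h, and all 4 groups were thus transfected with an siRNA. No other siRNA against Slc25a26 is among the 4 groups, so effects of losing Slc25a26 and other effects of the siRNA cannot be told apart.

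ISG15 is a small ubiquitin-like protein that type I interferon induces strongly and that cells attach to other proteins in a cascade parallel to ubiquitination. UBA7 is the E1 enzyme that activates ISG15, UBE2L6 (UBCH8) is the E2 enzyme that receives it, and HERC6 is the main E3 ligase that transfers it to substrates in mice. USP18 is the protease that removes ISG15, and it also binds the interferon receptor subunit IFNAR2 and damps signalling there. All of them are known as interferon-stimulated genes. Such genes are typically switched on through interferon-stimulated response elements (ISREs) in DNA, which are bound by ISGF3, a transcription factor complex that contains STAT2 and IRF9.

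RefSeq promoter windows, which run from 250 bases before to 50 bases after the start of a gene, were at hand for 3 of the 5 genes: Uba7, Ube2l6 and Herc6. The window of Uba7 is shown because it was the only window of the 3 with letters of the ISRE type. It is given 5′ to 3′ on the + strand of GRCr8, chr8:117543652-117543951, and the capitals mark the match.
Uba7: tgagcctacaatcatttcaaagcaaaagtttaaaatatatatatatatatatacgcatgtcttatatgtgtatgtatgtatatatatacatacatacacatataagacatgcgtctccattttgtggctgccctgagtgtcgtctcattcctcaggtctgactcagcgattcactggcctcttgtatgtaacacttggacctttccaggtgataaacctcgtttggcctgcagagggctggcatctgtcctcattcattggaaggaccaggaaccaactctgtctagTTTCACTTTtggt
The match covers bases 38 to 46 of the gene and reads TTTCACTTT, the reverse complement of the pattern AAANNGAAA. That pattern is the ISRE core (GAAA, 2 bases of any kind, GAAA) without its first base and was chosen after the Uba7 window had been seen. With both strands searched, it occurs in 11.8% of the 33469 promoter windows in the table. The full core occurs in 3.92% of them and in 0 of the 3 windows here. The pattern AAANNGAAA also lies inside the full core, so these shares overlap.

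Total counts per library ranged from 24770972 to 28709049. Slc25a26 checks the knockdown label. It was 31.4 ± 2.01 CPM (counts scaled to library size, mean ± SD, n = 3) in siNeg and 15.1 ± 0.612 CPM in siSlc25a26 (edgeR adjusted p = 1.08e-05). With PE the siNeg.PE libraries held 102 ± 14.1 CPM, and those carrying the siSlc25a26.PE label held 102 ± 3.68 CPM (edgeR adjusted p = 0.969). The targeted gene thus did not show a knockdown in the 3 libraries with the siSlc25a26.PE label, and every direction drawn from them below rests on that label. Nppa, the natriuretic peptide gene that marks hypertrophy, rose 24.7-fold with PE in siNeg and 22.9-fold in siSlc25a26. The 10 cardiomyocyte marker genes were well expressed in all 12 libraries, with summed levels of 32080 to 76421 CPM. Fibroblast markers were also present, at 10427 to 27856 CPM over 10 genes.

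All 5 ISG15 conjugation genes were far higher in the siSlc25a26 groups than in the siNeg groups. This held without PE and in the libraries with the siSlc25a26.PE label. In each gene the 6 libraries of the siSlc25a26 groups lay above all 6 libraries of the siNeg groups. The share of all genes with such a separation was not counted. Without PE the fold changes ran from 8.76 for Ube2l6 to 135 for Isg15, and under PE from 5.18 to 101 for the same genes. These are bulk cultures, in which a change in the number of expressing cells and a change in RNA per cell cannot be told apart.

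**Figure D1:**
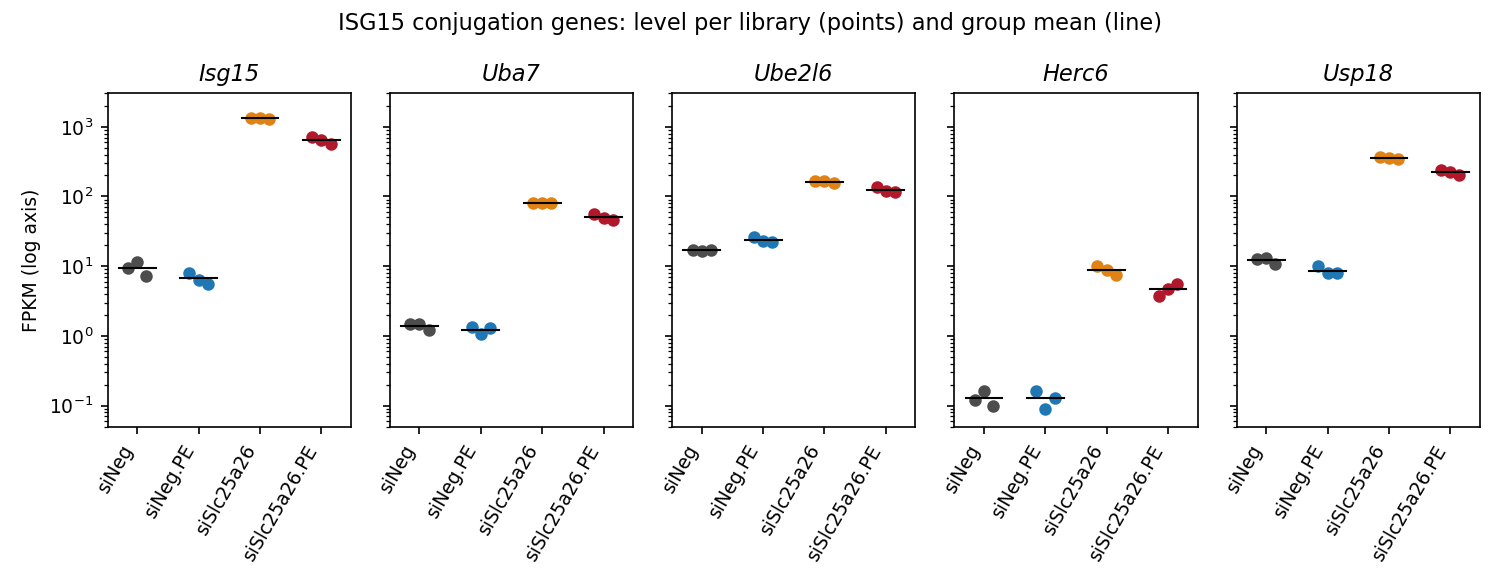
FPKM (fragments scaled to gene length and library size, log axis) of Isg15, Uba7, Ube2l6, Herc6 and Usp18 in each of the 12 libraries; points are libraries and black lines are means of the 3 libraries of a group. In every panel the siSlc25a26 and siSlc25a26.PE points sit above all siNeg and siNeg.PE points, with the smallest gap for Ube2l6.

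Isg15, the modifier itself, was measured at 5.73, 6.79 and 4.46 CPM in the 3 siNeg libraries and at 772, 747 and 807 CPM in siSlc25a26. Its mean of 775 ± 30.2 CPM in siSlc25a26 was 135-fold above siNeg, with a 95% interval of 111 to 164. On the log2 scale this fold change (log2FC) was 7.07 with a standard error (SE) of 0.124 (edgeR adjusted p = 7.87e-10). With PE, the siNeg.PE libraries held 5.29, 4.04 and 3.51 CPM, whereas those labelled siSlc25a26.PE held 486, 445 and 379 CPM. The log2FC under PE was 6.66 (SE 0.157, edgeR adjusted p = 6.34e-09). By FPKM, Isg15 moved from between rank 5871 and 7421 of the 18469 genes in siNeg libraries to between rank 36 and 39 in siSlc25a26.

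Uba7, the E1 enzyme whose promoter window is printed above, was low in the siNeg groups. It was 4.57, 4.42 and 3.39 CPM in siNeg and 239, 234 and 242 CPM in siSlc25a26. The rise was 56.6-fold, or a log2FC of 5.82 (SE 0.094, edgeR adjusted p = 5.77e-10). With PE the levels were 4.26, 3.42 and 3.91 CPM for siNeg.PE against 188, 160 and 153 CPM for siSlc25a26.PE, with a log2FC of 5.42 (SE 0.118, edgeR adjusted p = 5.44e-09). The 3 siSlc25a26 libraries were the most alike of any group for this gene, with a coefficient of variation of 1.5%.

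Ube2l6, the E2 enzyme, had the smallest fold change of the 5 genes in both comparisons. It was 19.9, 19.6 and 19.0 CPM in siNeg and 180, 175 and 166 CPM in siSlc25a26, with a log2FC of 3.13 (SE 0.0564, edgeR adjusted p = 8.24e-10). The siNeg.PE libraries had 30.4, 28.2 and 25.1 CPM and the siSlc25a26.PE libraries 159, 141 and 136 CPM, with a log2FC of 2.37 (SE 0.0948, edgeR adjusted p = 1.86e-07). The 3 siNeg.PE libraries all lay above the 3 siNeg libraries, and the 3 siSlc25a26.PE libraries all lay below the 3 siSlc25a26 libraries. The share of all genes with such separations was not counted.

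Herc6, the ligase, had few reads in the siNeg groups, with 13, 16 and 12 counts in siNeg and 15, 10 and 14 counts in siNeg.PE. In siSlc25a26 it reached 1248, 1103 and 909 counts and in siSlc25a26.PE 454, 558 and 648 counts. Its log2FC was 6.15 without PE (SE 0.175, edgeR adjusted p = 1.22e-08), or 70.8-fold, and 5.37 under PE (SE 0.212, edgeR adjusted p = 1.71e-07), or 41.5-fold. These SEs were the largest of the 5 genes in both comparisons.

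Usp18, the deconjugating protease, was 18.6, 20.4 and 15.7 CPM in siNeg and 588, 577 and 555 CPM in siSlc25a26, with a log2FC of 4.95 (SE 0.0953, edgeR adjusted p = 1.09e-09). Levels with PE were 15.7, 11.9 and 12.1 CPM for siNeg.PE, and 425, 394 and 355 CPM for libraries labelled siSlc25a26.PE, with a log2FC of 4.87 (SE 0.128, edgeR adjusted p = 1.21e-08). The groups did not overlap in either comparison. Usp18 counts were not whole numbers in 11 of 12 libraries, whereas those of the other 4 genes were whole in all 12. The Usp18 level thus rests on an estimated assignment of reads, and it is uncertain as far as reads shared with another locus were split.

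Set against all genes, 5 of 5 ISG15 conjugation genes were called higher without PE (fold change above 1.5 and edgeR adjusted p under 0.05), where 8.92% of the 13829 genes tested were called higher and 7.2% lower. Under PE 5 of 5 were called higher, where 7.71% of 13671 genes were and 8.1% were called lower. The median log2 fold change of the 5 genes was 5.82 without PE, against 0.015 over all genes tested, and 5.37 under PE, against -0.0029. Ranked by log2 fold change without PE, Isg15 was number 27 of 13829, Herc6 44, Uba7 57, Usp18 76 and Ube2l6 162. Under PE the ranks among 13671 genes were 15 for Isg15, 37 for Uba7, 38 for Herc6, 55 for Usp18 and 166 for Ube2l6. The count without PE does not use the siSlc25a26.PE libraries.

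The fold changes differed among the 5 genes. Without PE the 95% interval of the log2 fold change was 6.79 to 7.35 for Isg15, 5.75 to 6.54 for Herc6, 5.61 to 6.04 for Uba7, 4.73 to 5.16 for Usp18 and 3.0 to 3.26 for Ube2l6. Only the intervals of the neighbours Herc6 and Uba7 overlapped. Under PE the interval was 6.30 to 7.01 for Isg15, 5.16 to 5.69 for Uba7, 4.90 to 5.85 for Herc6, 4.59 to 5.16 for Usp18 and 2.16 to 2.59 for Ube2l6. There Isg15 lay above and Ube2l6 below the other 3 genes, and the intervals of Herc6 overlapped those of Uba7 and Usp18.

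**Figure D2:**
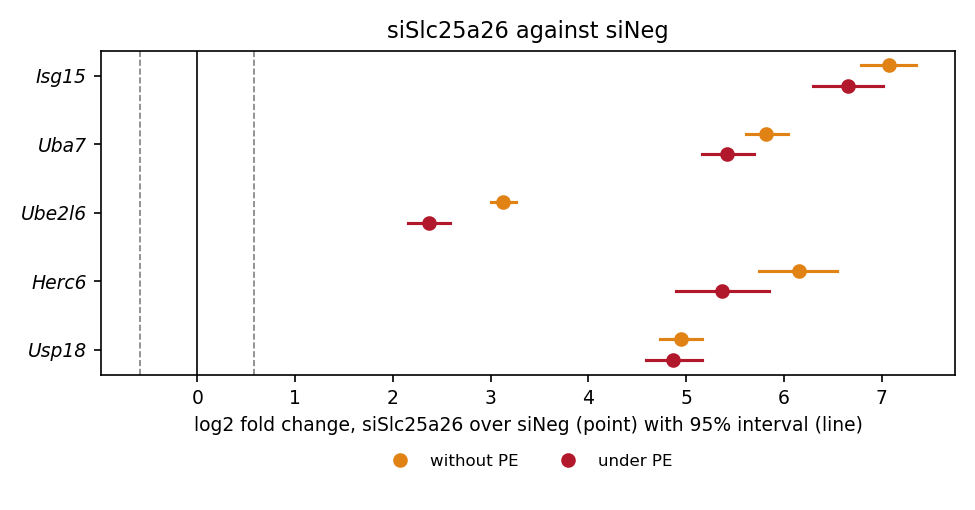
Log2 fold change of siSlc25a26 over siNeg without PE (orange) and under PE (red) for the 5 genes; points are edgeR estimates, lines their 95% intervals, and dashed lines mark a fold change of 1.5 in either direction. All intervals lie far to the right of the dashed line, from 2.16 at the lowest bound for Ube2l6 to 7.35 at the highest for Isg15.

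Because the genes moved by unequal amounts, their order per unit length also changed. By FPKM the order in each of the 6 siNeg and siNeg.PE libraries was Ube2l6, Usp18, Isg15, Uba7 and Herc6. In each of the 6 siSlc25a26 and siSlc25a26.PE libraries it was Isg15, Usp18, Ube2l6, Uba7 and Herc6. The E2 gene thus stood first in the siNeg groups and the modifier gene stood first in the siSlc25a26 groups, while the E1 and E3 genes kept the lowest places.

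In siNeg the mean level was 17.0 ± 0.328 FPKM for Ube2l6 (SD, n = 3), 12.3 ± 1.22 for Usp18, 9.38 ± 2.15 for Isg15, 1.4 ± 0.165 for Uba7 and 0.127 ± 0.0306 for Herc6. The neighbours Usp18 and Isg15 overlapped across siNeg libraries, with 10.8 to 13.1 FPKM against 7.2 to 11.5, although Usp18 was the higher in each library. They also overlapped in siNeg.PE, with 7.94 to 9.99 FPKM for Usp18 against 5.57 to 8.06 for Isg15. In siSlc25a26 the mean level was 1333 ± 22.3 FPKM for Isg15, 359 ± 12.5 for Usp18, 162 ± 7 for Ube2l6, 80.3 ± 0.576 for Uba7 and 8.81 ± 1.36 for Herc6, and no neighbours overlapped. In siSlc25a26.PE the same order ran from 637 ± 71.8 FPKM for Isg15 to 4.66 ± 0.853 for Herc6, again with no overlap between neighbours.

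Isg15 made up 19.6% to 26.8% of the summed FPKM of the 5 genes in siNeg and 14.9% to 17.7% in siNeg.PE. Its share was 68.3% to 69% in siSlc25a26 and 60% to 61.9% in siSlc25a26.PE. Ube2l6 went the other way, from 38.9% to 47.2% in siNeg to 8.14% to 8.48% in siSlc25a26. The ratio of Isg15 to its protease Usp18 in FPKM was 0.664 to 0.88 in siNeg, 0.702 to 0.807 in siNeg.PE, 3.66 to 3.79 in siSlc25a26 and 2.73 to 2.94 in siSlc25a26.PE. The modifier was therefore below the protease in all 6 siNeg and siNeg.PE libraries and above it in all 6 others. The ratio of Uba7 to Herc6 ran from 7.91 to 14.7 over the 12 libraries, and its ranges in the 4 groups overlapped.

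**Figure D3:**
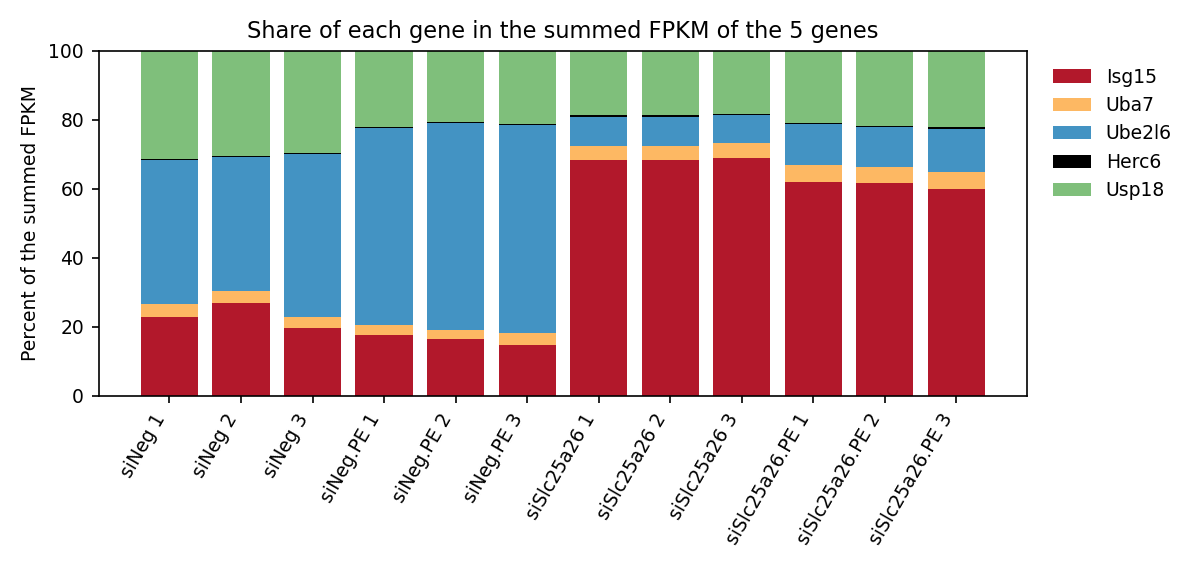
Share of each gene in the summed FPKM of Isg15, Uba7, Ube2l6, Herc6 and Usp18, as a stacked bar for each of the 12 libraries (percent). Ube2l6 takes the largest share in the 6 siNeg and siNeg.PE bars, 38.9% to 60%, and Isg15 the largest in the other 6, 60% to 69%.

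PE itself moved these genes far less. In siNeg, 0 of 5 genes were called, where 20.7% of 13719 genes tested were called in either direction and 8.24% were called lower. At an unadjusted p under 0.05 there were 2 of 5, Ube2l6 and Usp18, and DESeq2 and limma-voom also called 0. The log2 fold change of Ube2l6 was 0.50 (95% interval 0.32 to 0.69, edgeR adjusted p = 0.00164) and that of Usp18 -0.48 (95% interval -0.80 to -0.16, edgeR adjusted p = 0.0216), so both passed the adjusted p-value but not the 1.5-fold threshold. Isg15 had -0.42 (95% interval -0.87 to 0.045), Uba7 -0.11 (-0.48 to 0.27) and Herc6 0.0074 (-0.72 to 0.73), and none of the 3 passed the adjusted p-value. The sign of the Herc6 value changed between settings. The Isg15 value rests in part on siNeg.PE replicate 1, the highest of its group for all 5 genes. Without it 2 genes were called lower, Isg15 at -0.59 and Usp18 at -0.61 (edgeR adjusted p = 0.0466 and 0.00719).

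In the siSlc25a26 groups the 5 genes were at lower levels with PE than without it, and the libraries did not overlap for any of the 5. The share of all genes without overlap between these groups was not counted. Isg15 fell from 775 ± 30.2 to 436 ± 53.6 CPM, with a log2FC of -0.82 (SE 0.0814, edgeR adjusted p = 4.62e-05). Herc6 fell from 36.9 ± 5.47 to 21.6 ± 3.69 CPM, with a log2FC of -0.76 (SE 0.141, edgeR adjusted p = 0.00184). These 2 of 5 genes were called lower, where 10.4% of 13776 genes tested were, with 10.1% called higher and 20.5% called in either direction. Usp18 at -0.54, Uba7 at -0.50 and Ube2l6 at -0.25 had adjusted p-values of 0.000147, 0.000453 and 0.0116 in edgeR but stayed inside the 1.5-fold threshold. Without siSlc25a26.PE replicate 1, the highest library of that group for 4 of the 5 genes, Uba7 at -0.59 and Usp18 at -0.60 were called too (edgeR adjusted p = 1.22e-05 and 2.58e-05), which made 4 of 5. With limma on log2(FPKM + 1) 4 of 5 were also called, and on that scale the median of all genes was -0.13 in place of -0.0036.

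**Figure D4:**
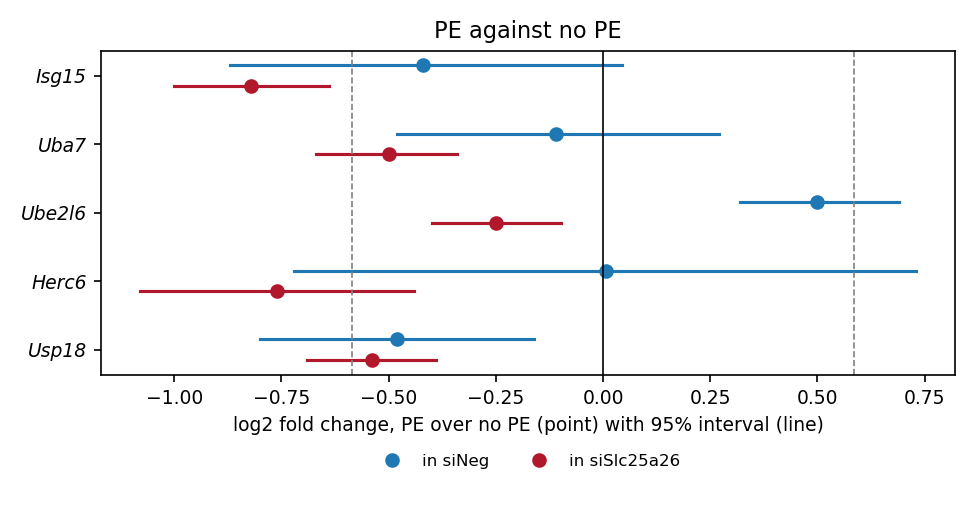
Log2 fold change of PE over no PE in siNeg (blue) and in siSlc25a26 (red) for the 5 genes; points are edgeR estimates, lines their 95% intervals, and dashed lines mark a fold change of 1.5 in either direction. The red points lie between -0.82 and -0.25, and Ube2l6 is the gene whose blue point, at 0.50, lies on the other side of 0 with an interval that excludes 0.

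The difference between both PE effects was tested with all 12 libraries. The same term is the log2FC of siSlc25a26.PE over siNeg.PE less that of siSlc25a26 over siNeg, by their labels. Of the 5 genes, 1 was called, Ube2l6, where 5.5% of 14097 genes were called in either direction and 3.34% lower. Its PE effect was lower in siSlc25a26 than in siNeg by 0.77 on the log2 scale (95% interval -1.01 to -0.54, edgeR adjusted p = 0.00101). The difference was -0.79 for Herc6 (-1.57 to -0.0018), -0.43 for Isg15 (-0.89 to 0.032), -0.42 for Uba7 (-0.77 to -0.062) and -0.088 for Usp18 (-0.42 to 0.25), with edgeR adjusted p-values of 0.189, 0.223, 0.125 and 0.756. A difference for these 4 genes was not shown, and for Herc6 the interval also allows a difference larger than that of Ube2l6.

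Within the siSlc25a26.PE group the genes did not vary alike between replicates. Replicate 1 had the highest level of Isg15, Uba7, Ube2l6 and Usp18, at 0.12 to 0.18 above the group mean on the log2 scale, and the lowest level of Herc6, at -0.27. Replicate 3 had the lowest level of the first 4 genes, at -0.20 to -0.094, and the highest of Herc6, at 0.22. In siSlc25a26 Herc6 also varied most, with a coefficient of variation of 14.8%, against 1.5% to 4.1% for the other 4.

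The rest of the ubiquitin-like machinery gives the setting. Of 14 other modifier genes, among them ubiquitin, SUMO and NEDD8 genes, 2 were called higher without PE. One of these was Ubd, which encodes FAT10, another interferon-inducible modifier, with 2, 0 and 0 counts in siNeg and 19, 14 and 17 in siSlc25a26, and the other was Atg12, an autophagy modifier, with a log2FC of 0.62 (edgeR adjusted p = 0.00057). The median of the list was -0.079. Under PE 0 of 13 tested were called, with 8 at an unadjusted p under 0.05 and 0 called by DESeq2 or limma-voom. Ubd was not tested under PE, with 0, 0 and 1 counts in siNeg.PE and 9, 11 and 8 counts in siSlc25a26.PE. The ubiquitin genes share near-identical repeats, so their reads may have been split between them.

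None of the 9 other E1 enzyme genes was called by edgeR, DESeq2 or limma-voom without or under PE, with 4 and 2 of 9 at an unadjusted p under 0.05, and their median log2 fold change was 0.11 in both comparisons. Uba1, the main ubiquitin E1 gene and a relative of Uba7, was at 0.056 without PE (edgeR adjusted p = 0.356). Of 36 other E2 genes, 0 were called by any of the 3 tools without PE, with 14 at an unadjusted p under 0.05, and under PE 1 was called lower, Ube2t, a cofactor of the Fanconi anaemia pathway, at -1.26 (edgeR adjusted p = 6.07e-05). Ube2l3, the close relative of Ube2l6 that serves ubiquitin, was 280 ± 3.33 CPM in siNeg and 284 ± 6.23 CPM in siSlc25a26 (SD, n = 3), with a log2FC of -0.0056 (edgeR adjusted p = 0.931). The median of the 36 genes was 0.018 without PE and 0.023 under PE.

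Of 6 further HERC family genes and proposed ISG15 ligases, 2 rose in both comparisons. Trim25, an interferon-inducible ligase that acts on RIG-I, was 64.6, 60.1 and 63.5 CPM in siNeg and 269, 261 and 269 CPM in siSlc25a26, with a log2FC of 2.06 without PE and 2.05 under PE (edgeR adjusted p = 3.99e-09 and 3.76e-08). Herc3 had 0.80 and 0.65 (edgeR adjusted p = 5.12e-06 and 6.77e-05). Herc1, Herc2, Herc4 and Arih1 were not called. Of 6 other proteases proposed to act on ISG15, among them Usp5 and Usp14, 0 were called by edgeR, DESeq2 or limma-voom in either comparison, with 5 and 1 of 6 at an unadjusted p under 0.05 and log2 fold changes from -0.40 to 0.45 without PE.

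**Figure D5:**
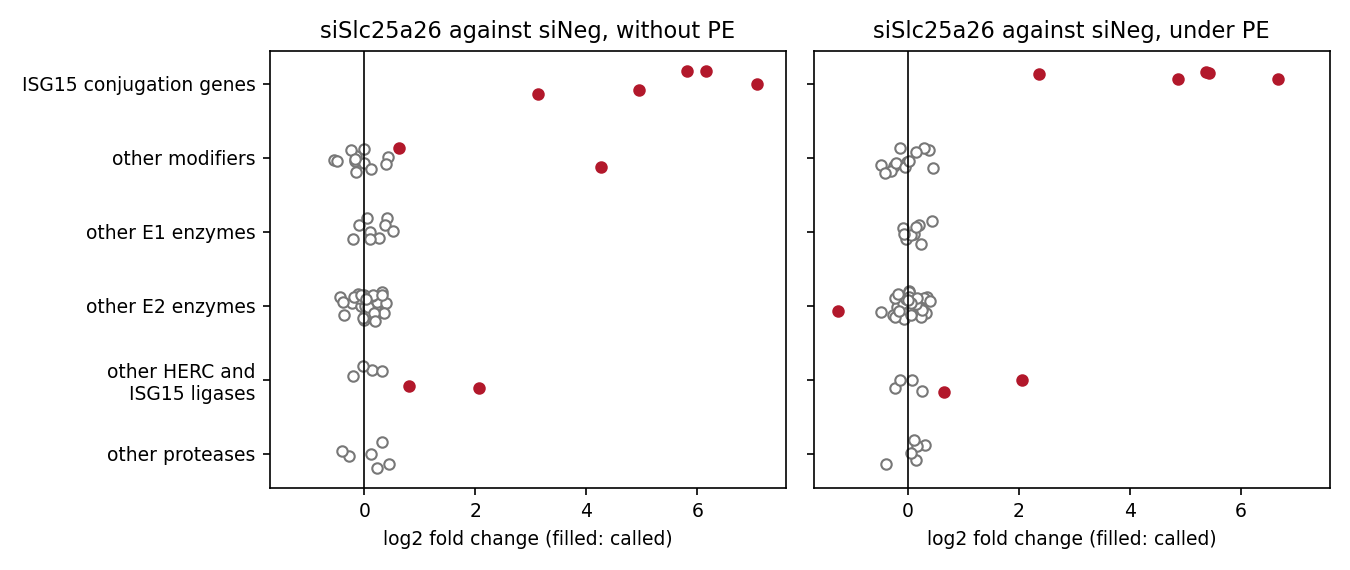
Log2 fold change of siSlc25a26 over siNeg without PE (left) and under PE (right) for single genes (points) of the ISG15 conjugation list and of 5 lists of related genes; filled points were called by edgeR, and vertical scatter within a row only separates points. The 5 ISG15 conjugation genes lie between 2.37 and 7.07, while of the other lists only Ubd without PE and Trim25 exceed 2.

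Genes upstream of the ISREs were higher in part. Stat2 and Irf9, which encode subunits of ISGF3, were called higher in both comparisons. Stat2 had a log2FC of 2.79 without PE and 2.46 under PE, and Irf9 had 2.20 and 2.13, with edgeR adjusted p-values of 3.83e-07 or less. The receptor genes Ifnar1 at 0.097 and Ifnar2 at 0.41 were not called without PE, and neither were the kinases Jak1 at 0.22 and Tyk2 at 0.46. Ifnar2, Jak1 and Tyk2 had edgeR adjusted p-values of 0.00076, 0.0102 and 0.000575 but stayed inside the 1.5-fold threshold. With PE in the siSlc25a26 groups, Stat2 at -0.92 was called lower as Isg15 and Herc6 were (edgeR adjusted p = 4.87e-06), and Irf9 at -0.44 was not called. Stat2 was also called lower with PE in siNeg, at -0.59 (edgeR adjusted p = 0.000306), where Isg15 and Herc6 were not called. Irf9 was at -0.37 there (edgeR adjusted p = 0.00715), inside the 1.5-fold threshold.

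Of 10 interferon ligand genes, 8 are in the tables, and few of their reads were found. Ifnb1, which encodes interferon β, had 1, 0 and 0 counts in siNeg and 50, 53 and 55 counts in siSlc25a26 (edgeR adjusted p = 1.36e-05). Under PE it had 0 counts in each siNeg.PE library and 4, 7 and 7 counts in siSlc25a26.PE, too few for the test there. Between siSlc25a26 and siSlc25a26.PE it fell by 2.90 on the log2 scale (SE 0.283, edgeR adjusted p = 4.12e-05). Ifna4, of the interferon α family, had 23, 11 and 9 counts in siSlc25a26 and 0 in each siNeg library, and it was below the filter of every comparison. Members of the interferon α family are near-identical in sequence, so the assignment of these reads is uncertain.

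The mean profile of the 5 genes over the 12 libraries was most like those of Ddx58 (the RNA sensor RIG-I), Sp110, Dtx3l, Mx2 and B2m (the light chain of MHC class I), in that order, among 14092 other genes. Pearson's r ran from 0.998 to 0.999 for these 5, and 78 genes had an r of at least 0.99. The 12 points share the siRNA groups, so the values describe how alike the steps between groups were. In log2 fold change without PE these 5 genes moved by 2.61 for B2m to 6.69 for Mx2.

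Marker genes of other cell types moved between the same groups. The 12 leukocyte markers summed to 110 to 131 CPM in siNeg and 57.1 to 66.3 CPM in siSlc25a26, and to 59.7 to 67.5 CPM in siNeg.PE and 39.9 to 46.4 CPM in siSlc25a26.PE, with Cd3e and Cd163 among the markers at 3 counts or fewer in every library. Of those tested, 6 of 8 were called lower in siSlc25a26 than in siNeg without PE and 2 of 7 under PE, Lyz2 and Mrc1, with medians of -0.88 and -0.18. The summed leukocyte levels overlapped between siSlc25a26 and siNeg.PE, groups that differ in both siRNA and PE. Fibroblast markers summed to 25086 to 27856 CPM in siNeg and 14653 to 16645 CPM in siSlc25a26, with 7 of 10 called lower, and to 13356 to 13941 CPM in siNeg.PE and 10427 to 11537 CPM in siSlc25a26.PE, with 4 of 10 called lower and 1 higher. Of 10 cardiomyocyte markers, 2 were called lower without PE, and 1 higher and 1 lower under PE. The median log2 fold change of 8 endothelial markers, of which 7 and 6 were tested, was -0.18 and 0.054, with 1 and 0 called, and for 6 smooth muscle and pericyte markers it was -0.47 and 0.32, with 2 called lower without PE, and 2 lower and 1 higher under PE. The part of these cell types in the values of the ISG15 conjugation genes was not tested.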

How the data were processed

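The authors deposited estimated (expected) counts and FPKM values by gene for 12 libraries sequenced by BGI. The submitters' processing notes name HISAT, Bowtie2 and the build Rnor_6.0, with no roles or versions; the counting program, annotation and strandedness are not given in the sources used here. In each library 20.8% to 21.9% of the deposited estimated counts were not whole, and all were rounded. Libraries were grouped by their titles, and p-values measure the spread between these samples.

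Counts were tested with edgeR 4.0.16 in R 4.3.3 (TMM, filterByExpr, quasi-likelihood F-test, Benjamini-Hochberg over all genes tested, only the libraries compared, without a replicate term) and called at a fold change above 1.5 and adjusted p under 0.05. The design was written for plain counts. Standard errors come from the F statistic. CPM uses TMM factors over 12 libraries, and log2 CPM a prior count of 2. No replicate pair looked like a repeat deposit (chi-square per gene at least 5.52). The procedure was tested on simulated data. Alternatives were DESeq2 1.42.0, limma 3.58.1 (voom, log2 FPKM), DESeq2 size factors, 2 other filters, a replicate block, all libraries in one fit and leaving out each library.

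Named were the 5 genes, the called genes of fixed lists (at most 4 per list), the 5 genes nearest in profile, Slc25a26, Nppa and, for the contrast with a relative, Uba1 and Ube2l3, chosen after their values were seen. The genes and lists were chosen with earlier results of these data known. Of the gene identifiers, 16962 of 18469 matched the RefSeq table of GRCr8; promoter windows are from RefSeq on GRCr8. Some genes of the lists are not reported here.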

Additional observations from a re-analysis of the deposited data

Results flagged for a closer look

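Ube2l6 was the only one of the 5 genes called in the main edgeR test of the difference between the PE effects. For the other genes a difference was not shown, which does not mean that there was none. For Ube2l6 the PE effect in siSlc25a26 less that in siNeg was -0.77 on the log2 scale (edgeR adjusted p = 0.00101, 12 libraries). All 3 siNeg.PE libraries lay above the siNeg libraries, and all 3 siSlc25a26.PE libraries lay below the siSlc25a26 libraries. The share of all genes with such separations was not counted. Neither PE effect on Ube2l6 was itself called, at 0.50 in siNeg and -0.25 in siSlc25a26. The effect in siSlc25a26 did not pass the adjusted p-value in every alternative. Over the alternatives and the libraries left out in turn, the Ube2l6 value lay between -0.88 and -0.71. Herc6, at -0.79 in the main fit, was called too on both FPKM scales.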

How the results depend on the processing

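Every alternative and every left-out library gave 5 of 5 genes called higher in siSlc25a26 against siNeg, without and under PE. The PE results depended more on the setting, and except where stated the causes were not tested. For PE in siNeg the number called was 0 and ran from 0 to 2 with each library left out. For PE in siSlc25a26 it was 2, but 4 with limma on log2(FPKM + 1) or log2(FPKM + 0.1), and 2 to 4 with libraries left out. For the difference between PE effects it was 1, but 2 on both FPKM scales, where Herc6 was called too. The Herc6 value for PE in siNeg, 0.0074, was -0.00012 and -0.0033 on these scales and -0.10 to 0.18 with libraries left out. The Usp18 difference, -0.088, ran from -0.18 to 0.053 with libraries left out. On log2(FPKM + 1) the Herc6 value for siSlc25a26 against siNeg was 3.11 in place of 6.15 without PE and 2.32 in place of 5.37 under PE, since the pseudocount exceeds its level in siNeg. Over all genes that scale called 1284 in place of 2229 without PE, 1379 in place of 2162 under PE and 1590 in place of 2838 for PE in siNeg. Of the genes called for PE in siSlc25a26, 49.2% were higher, but 27.4% and 27.1% on both FPKM scales, and of those called for the difference 39.3%, but 23.4% and 22.1%. Same-numbered libraries did not deviate together in every pair (correlations of -0.0913 to 0.217). For PE in siNeg, however, replicates 1 and 3 correlated more with their own number, at 0.145 and 0.217. Their highest correlations with another number were 0.0443 and -0.057. For replicate 2 both values were near 0, at 0.00943 and 0.00825. Whether the numbers pair the samples is thus not settled. With a block for the replicate number, the ISG15 conjugation genes called were 5, 5, 0, 2 and 1 of 5.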

Other observations

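Partners of ISG15 and USP18 outside the conjugation cascade went different ways. Secreted ISG15 binds the integrin LFA-1, whose chains are encoded by Itgal and Itgb2. In siSlc25a26 without PE, Itgal was at -0.15 on the log2 scale (edgeR adjusted p = 0.619). Itgb2 fell by 1.32 there (edgeR adjusted p = 6.02e-05). LFA-1 is a leukocyte integrin, and 6 of 8 leukocyte markers tested were also called lower in that comparison, with a median of -0.88. Their part in the Itgb2 value was not tested. The PE effect on Itgb2 in siSlc25a26 less that in siNeg was 0.89 (edgeR adjusted p = 0.00777). Skp2, a ubiquitin ligase subunit that targets USP18 for degradation, rose by 0.63 (edgeR adjusted p = 0.00204). Under PE 0 of these 3 genes were called by edgeR, DESeq2 or limma-voom, with 1 of 3 at an unadjusted p under 0.05.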
